A study of Mus musculus with 15 samples.

Results

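The 5 genes described here, Trdc, Trdv4, Tcrg-C1, Tcrg-C2 and Tcrg-C4, belong to the γ and δ chains of the T cell receptor (TCR) and were measured in invariant natural killer T (iNKT) cells, which carry an αβ TCR. They were chosen by name from the 48795 genes listed for each library. Whole transcriptome RNAseq was performed on iNKT cells of untreated WT C57BL/6 mice aged 6 weeks, sorted as cells that bound the CD1d tetramer and TCRβ antibody and lacked B220, CD11b, CD11c and CD8. Libraries of 4 replicates each from thymus, spleen and mesenteric lymph node (mLN) and of 3 from inguinal lymph node (iLN) were analysed, 15 in all, and iLN replicate 1 was not analysed here. All groups share strain, genotype and sort gate and differ only in tissue, although lymph nodes (LNs) were digested with enzymes and thymus and spleen were not. Samples are named as biological replicates, with nothing on how many mice went into each, so that p-values measure the spread between these samples.

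The γδ TCR pairs a γ with a δ chain and marks a T cell lineage that is separate from αβ T cells. The δ genes lie inside the α locus, so that joining a V to a J segment of the α chain removes them from that chromosome, whereas the γ locus lies on another chromosome and αβ T cells often keep rearranged γ genes. In the mouse γ locus each constant gene sits in its own cassette with a J segment and one or more V segments, and transcription of the locus is known to depend on IL-7 receptor signalling.

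On GRCm38, the δ constant gene Trdc (ENSMUSG00000104876) lies at chr14:54142851-54148868 and the δ V segment Trdv4 (ENSMUSG00000076867) at chr14:54074905-54075515, both on the + strand. The γ constant genes lie on chromosome 13, Tcrg-C1 (ENSMUSG00000076749) at chr13:19214103-19217024 on the + strand, Tcrg-C2 (ENSMUSG00000076752) at chr13:19304649-19307551 on the - strand and Tcrg-C4 (ENSMUSG00000076757) at chr13:19344558-19352756 on the + strand.

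The Tcrg-C genes are copies of each other, and their first exons are shown here because the counts of 3 members rest on telling these copies apart. Exon 1 is 330 bases long in each gene. The first 150 bases of exon 1 of the GENCODE M21 transcripts (GRCm38) are printed 5′ to 3′, with capitals at bases that differ from Tcrg-C1; the genomic positions are chr13:19214103-19214252 (+ strand) for Tcrg-C1, chr13:19307402-19307551 (- strand) for Tcrg-C2, chr13:19260885-19261034 (+ strand) for Tcrg-C3, which is not a member, and chr13:19344558-19344707 (+ strand) for Tcrg-C4.
Tcrg-C1: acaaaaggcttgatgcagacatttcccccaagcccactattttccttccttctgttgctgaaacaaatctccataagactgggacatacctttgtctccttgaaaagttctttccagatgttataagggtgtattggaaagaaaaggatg
Tcrg-C2: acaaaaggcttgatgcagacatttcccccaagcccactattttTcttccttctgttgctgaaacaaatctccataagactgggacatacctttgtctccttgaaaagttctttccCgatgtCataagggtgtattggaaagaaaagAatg
Tcrg-C3: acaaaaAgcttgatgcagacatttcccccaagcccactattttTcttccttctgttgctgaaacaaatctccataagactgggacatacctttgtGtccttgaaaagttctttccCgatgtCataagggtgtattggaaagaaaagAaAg
Tcrg-C4: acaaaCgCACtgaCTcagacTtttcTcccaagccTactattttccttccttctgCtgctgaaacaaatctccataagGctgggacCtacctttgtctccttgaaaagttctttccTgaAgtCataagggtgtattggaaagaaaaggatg
Over the whole exon, Tcrg-C2 differed from Tcrg-C1 at 9 bases (97.3% identity) and Tcrg-C4 differed from it at 59 (82.1% identity). Of all stretches as long as a read, 96.8% in the Tcrg-C1 transcript, 99.5% in that of Tcrg-C2 and every one in that of Tcrg-C4 occurred in no other Tcrg-C transcript. The tests were also run on the summed Tcrg-C genes, which do not depend on how reads were split between copies.

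The libraries held between 1152702 (thymus replicate 2) and 8670570 (spleen replicate 1) expected counts, with a median of 5327351. Expected counts estimate how many sequenced fragments each gene gave, with fragments that match several genes divided among them. Libraries came in 2 batches named in the labels, First (replicates 3 and 4, 8 libraries) and Second (replicates 1 and 2, 7 libraries, 1 of them from iLN). All 15 libraries expressed the αβ TCR, with Trac, the α constant gene, between 1556 and 4484 TPM (transcript abundance scaled for length and library) and Trav11, the V segment of the invariant α chain, between 145 and 335 CPM (counts scaled to a common library size).

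The γ constant genes were among the most abundant transcripts of iNKT cells, whereas the δ genes were at or near 0. In TPM Tcrg-C2 was at 204 to 891.5 with a median of 534, Tcrg-C1 at 119 to 652 with a median of 271, and Tcrg-C4 at 109 to 556 with a median of 243. Ordered by TPM among the 48795 genes, the median rank was 174 for Tcrg-C2, 257 for Tcrg-C1, 355 for Tcrg-C4 and 21 for Trac. Tcrg-C2 was the highest of the 3 in 15 of 15 libraries, and Tcrg-C4 was above Tcrg-C1 in 5 libraries, namely in 4 of 4 from mLN and in spleen replicate 2. The fourth γ constant gene, Tcrg-C3, had 270.8 counts over all libraries, against 25766 for Tcrg-C2.

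In TPM, the 4 Tcrg-C genes summed to between 21.3% and 62.0% of the level of Trac. The mean share was 37.6% ± 16.9 (SD, n = 4) in thymus, 38.9% ± 13.8 (n = 4) in spleen, 42.7% ± 14.3 (n = 4) in mLN and 42.5% ± 5.01 (n = 3) in iLN. These tissue means lay within 1 SD of each other, but the SDs include the spread between batches. The share was 21.3% to 42.8% in the First and 42.5% to 62.0% in the Second batch. Within the First batch it was 37.3% and 42.8% in iLN and 21.3% to 33.3% in the other tissues. The Second-batch iLN library, at 47.3%, lay within the range of the other tissues. Tissue differences in this share were not tested.

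**Figure D1:**
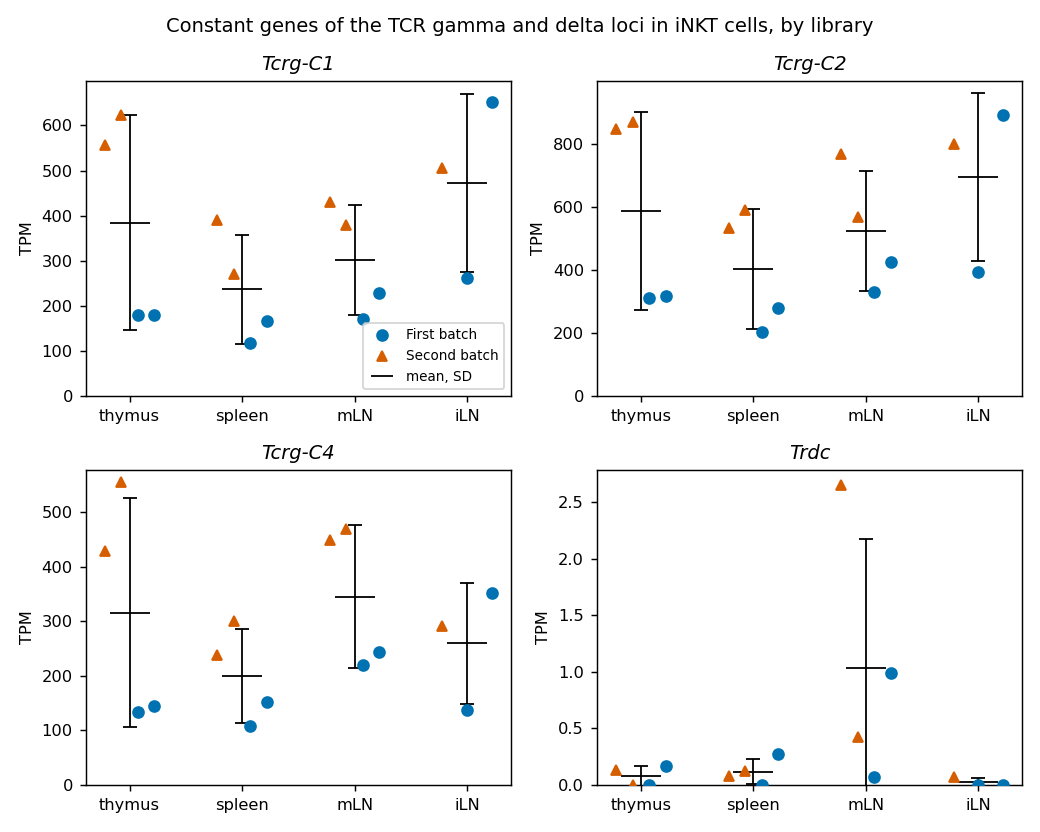
Level of Tcrg-C1, Tcrg-C2, Tcrg-C4 and Trdc in TPM (y axis, linear, own scale in each panel) in each of the 15 libraries by tissue (x axis). Circles are the First and triangles the Second batch, and black bars give mean and SD. The 3 γ constant genes reach 556 to 891.5 TPM, Trdc stays at or below 2.65 TPM, and in thymus, spleen and mLN both Second-batch points lie above both First-batch points for each γ gene.

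Trdc, the only δ constant gene, was close to absent outside mLN. Its expected counts were 2.99, 0, 0 and 3 in thymus replicates 1 to 4, 1.93, 2, 0 and 4 in spleen, 60.02, 8, 1 and 14 in mLN, and 1, 0 and 0 in iLN replicates 2 to 4. Thus 83.0 of 97.9 counts came from mLN and 60.02 of them from mLN replicate 1 alone. Replicates 2 and 4 of mLN were also above every library of the other tissues, and replicate 3 was not. In CPM, mLN replicate 1 was at 7.78 and no other library exceeded 2.70.

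Set against the α constant gene of the same locus, the share of Trdc in the counts of Trdc and Trac was 1.07% in mLN replicate 1 (95% Wilson interval 0.835% to 1.38%), 0.377% in mLN replicate 4 (0.225% to 0.631%) and 0.149% in mLN replicate 2 (0.0754% to 0.293%). In the other 12 libraries it was at most 0.130%, and the mean was 0.408% ± 0.467 (SD, n = 4) in mLN, 0.0575% ± 0.0539 (n = 4) in spleen, 0.0267% ± 0.0316 (n = 4) in thymus and 0.00721% ± 0.0125 (n = 3) in iLN. The SD in mLN was larger than the mean. This share is in counts, not per length, and compares libraries rather than genes; in TPM it was 0.0978% in mLN replicate 1. Intervals, and the limit of 3 counts that a count of 0 allows, cover counting error only.

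Trdc did not pass the filter on low counts, so that 3 of the 5 members were tested. Fitted with no filter, edgeR's quasi-likelihood test gave mLN over spleen a log2 fold change of 2.93 (SE 1.39, adjusted p = 0.435), and DESeq2 gave 3.01 (SE 1.43, adjusted p = 0.284). The largest difference was between iLN and mLN, with a log2 fold change of -5.02 (SE 1.78, adjusted p = 0.128) in edgeR and -5.13 (SE 1.86, adjusted p = 0.0946) in DESeq2, where 2 of the 3 iLN libraries were at 0. Trdc was not called in either fit. In these bulk samples, fewer cells of a type and less RNA per cell cannot be told apart. Trdc overlaps the antisense gene Gm43434, which had 17 counts in all, 15 of them in thymus replicate 1 and 0 in mLN, and the sources used here do not say whether counting used strand.

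The V, D and J segments of the δ chain were at or near 0. Trdv4, the V segment among the members, had 0 counts in each of the 15 libraries, where a count of 0 allows up to 3. Of the 10 Trd V, D and J segments listed, 7 had 0 counts in every library and the 10 held 11 counts in all, of which Trdv2-2 took 9 (thymus replicates 1 and 3, spleen replicate 1 and iLN replicate 2). No count of these Trd segments came from mLN replicate 1, where Trdc was highest. Segments named for both α and δ use (10 Trav-dv genes) held 4.50 to 30.8 counts per library, 0.259% to 3.73% of the counts of all Trav segments. In mLN replicate 1 they held 14.5 counts (0.741%).

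**Figure D2:**
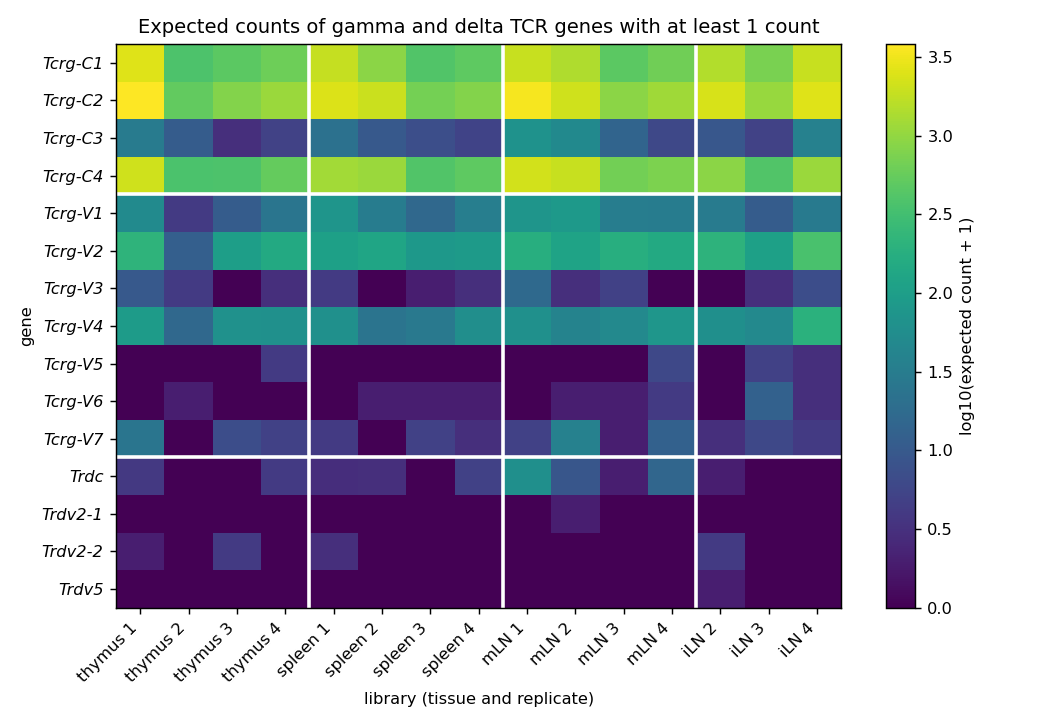
Expected counts of the γ and δ genes with at least 1 count, as log10(count + 1) (colour), in each library (x axis, tissue and replicate) and gene (y axis, γ constant, γ variable and δ genes separated by white lines). Tcrg-C1, Tcrg-C2 and Tcrg-C4 are high in every column, Tcrg-V2 is the highest V segment in 14 of 15 columns, and Trdc stands out in mLN replicate 1 with 60.02 counts. Counts are not scaled for depth.

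To ask how the γ constant genes vary with anatomical location, the 4 tissues were compared in a model of tissue and batch. Tcrg-C1 and Tcrg-C2 were higher in iLN than in spleen, and no member passed the test in another pair of tissues. For Tcrg-C1, CPM was 266, 194 and 328 in iLN replicates 2 to 4 and 181, 139, 100.4 and 101.5 in spleen replicates 1 to 4. The lowest iLN library was above the highest spleen library, which was so for 6.0% of the 13600 genes tested. The log2 fold change was 1.23 (SE 0.23, edgeR adjusted p = 0.00339), a fold of 2.34.

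For Tcrg-C2, CPM was 415, 288 and 443 in iLN and 243, 299, 171 and 169 in spleen. Here the groups overlapped, because iLN replicate 3 was below spleen replicate 2. The log2 fold change was 0.97 (SE 0.19, edgeR adjusted p = 0.00617), a fold of 1.96. Tcrg-C4 had CPM of 166, 110 and 192 in iLN and 119, 168, 99.7 and 100.7 in spleen, and its log2 fold change of 0.54 (SE 0.23, adjusted p by edgeR = 0.234, 95% interval 0.09 to 0.99) did not pass the test.

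Thus 2 of the 3 members tested were called higher in iLN than in spleen, at an adjusted p under 0.01 and a fold change over 1.5, against 0.963% of all genes tested (1.55% in either direction). The summed Tcrg-C genes had a log2 fold change of 0.95 (SE 0.19, adjusted p by edgeR = 0.00743, and 0.01 to 0.0482 without any 1 library other than iLN replicate 2 or mLN replicate 1), whereas the median over all genes was 0.01. For comparison, Trac had a log2 fold change of 0.62 (SE 0.16, adjusted p by edgeR = 0.0286), Trbc2 of -0.01 (adjusted p = 0.992) and Cd3e of 0.26 (adjusted p = 0.347), and 0 of the 7 αβ TCR and CD3 genes were called in this pair. The difference between Tcrg-C1 and Trac was not tested.

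These calls rest on a small margin. Without iLN replicate 4 the log2 fold change was 0.84 for Tcrg-C1 (edgeR adjusted p = 0.0246) and 0.67 for Tcrg-C2 (adjusted p = 0.0422). Leaving out spleen replicate 2, 3 or 4 moved Tcrg-C1 to an adjusted p of 0.0114 to 0.0147, and leaving out any spleen library, mLN replicate 4 or thymus replicate 2 or 3 moved Tcrg-C2 to 0.0103 to 0.0257, with log2 fold changes of at least 0.91. With no batch term the adjusted p was 0.161 and 0.234.

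In the other pairs, 0 of 3 members were called by edgeR and 0 by DESeq2. The share of all genes called was 1.32% between thymus and spleen, 0.654% between mLN and spleen, 1.6% between mLN and thymus, 1.5% between iLN and thymus and 0.471% between iLN and mLN. At an unadjusted p under 0.05 the members counted 3, 2, 0, 2 and 2 of 3 in these pairs, against 10.6%, 12.2%, 13.5%, 16.5% and 13.8% of all genes. The nearest to a call was Tcrg-C1 in iLN over mLN, with a log2 fold change of 0.90 (SE 0.23, adjusted p by edgeR = 0.0574).

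Tcrg-C1 CPM was 316, 282, 132 and 119 in thymus and 250, 205, 99.9 and 124 in mLN, so that the order of tissue means was iLN (263 ± 67.1, SD, n = 3), thymus (212 ± 101.1, n = 4), mLN (170 ± 69.9, n = 4) and spleen (130 ± 37.9, n = 4). Neighbours in this order did not pass the test, with adjusted p of 0.181 for iLN and thymus, 0.622 for thymus and mLN and 0.578 for mLN and spleen in the edgeR fit. In thymus the replicates spanned 119 to 316, more than the span of the tissue means.

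Tcrg-C2 CPM was 472, 388, 225 and 208 in thymus and 440, 303, 190 and 227 in mLN, and the order of tissue means was the same, with iLN at 382 ± 82.7 (SD, n = 3), thymus at 323 ± 128 (n = 4), mLN at 290 ± 111 (n = 4) and spleen at 221 ± 62.7 (n = 4). Tcrg-C4 had another order of means. Its CPM was 264, 273, 106 and 104 in thymus and 283, 275, 139 and 143 in mLN, which put mLN (210 ± 79.6, n = 4) above thymus (187 ± 94.3, n = 4), iLN (156 ± 41.8, n = 3) and spleen (122 ± 31.8, n = 4). The largest log2 fold change of Tcrg-C4 was 0.73 in mLN over spleen (SE 0.21, edgeR adjusted p = 0.106), and its neighbours in this order did not pass the test either.

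Over the 4 tissues together, Tcrg-C1 passed the test (edgeR adjusted p = 0.00825), as did 3.38% of all genes, whereas Tcrg-C2 (0.0186), Tcrg-C4 (0.159) and the summed Tcrg-C genes (0.0237) did not. Leaving out any 1 library except iLN replicate 2 and mLN replicate 1 took Tcrg-C1 to an adjusted p of 0.0115 to 0.0334.

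**Figure D3:**
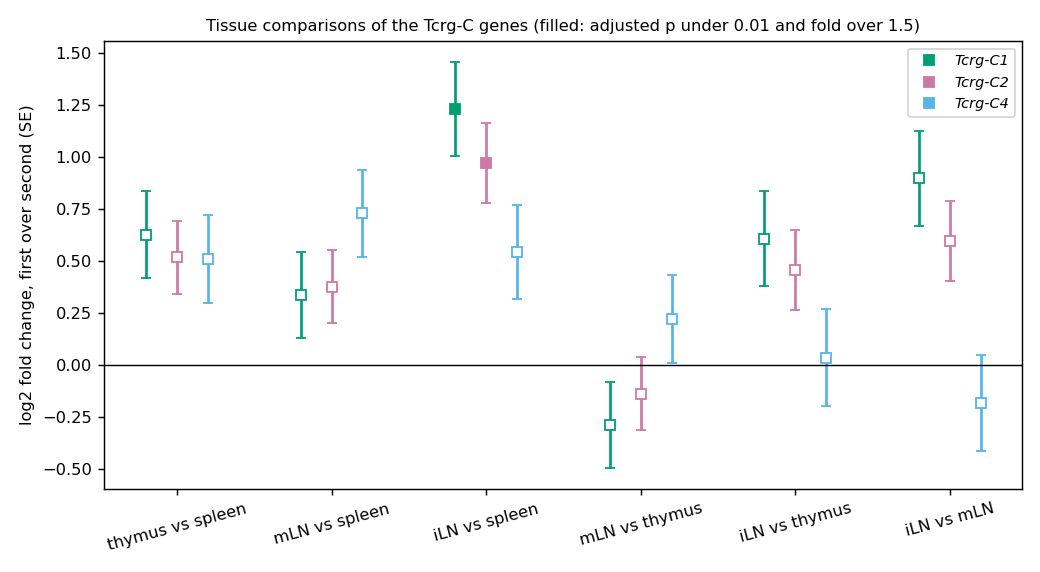
Log2 fold change (y axis, first tissue over second) of Tcrg-C1, Tcrg-C2 and Tcrg-C4 in the 6 pairs of tissues (x axis), with SE as bars. Filled squares passed an adjusted p under 0.01 and a fold change over 1.5, which are Tcrg-C1 (1.23) and Tcrg-C2 (0.97) in iLN vs spleen, and Tcrg-C4 is the only gene below 0 in iLN vs mLN (-0.19).

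The γ constant genes also differed between batches. In thymus, spleen and mLN each Second-batch library had more Tcrg-C1, Tcrg-C2 and Tcrg-C4 than each First-batch library of the same tissue, whereas in iLN the single Second-batch library lay between the First-batch libraries. In the fit, Second over First had a log2 fold change of 0.82 for Tcrg-C1 (SE 0.16, edgeR adjusted p = 0.00268), 0.72 for Tcrg-C2 (SE 0.13, adjusted p = 0.0019) and 0.81 for Tcrg-C4 (SE 0.16, adjusted p = 0.00308). Hence 3 of 3 members were called higher in the Second batch, against 1.67% of all genes, and Trac was not (-0.13, adjusted p = 0.503).

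Within the First batch, iLN over spleen was 1.35 for Tcrg-C1 (edgeR adjusted p = 0.0202) and 1.09 for Tcrg-C2 (adjusted p = 0.0297) on the log2 scale, from 2 libraries a tissue. Within the Second batch, with 1 iLN library assumed to vary like the others, they were 0.72 (adjusted p = 0.447) and 0.59 (adjusted p = 0.558). The interaction of tissue and batch had an unadjusted p of 0.0374 for Tcrg-C1, 0.217 for Tcrg-C2 and 0.0294 for Tcrg-C4, and adjusted p of 0.592, 0.777 and 0.592.

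The mix of γ constant genes also differed between tissues. The share of Tcrg-C4 in the counts of the 4 Tcrg-C genes was 25.01%, 28.7%, 22.9% and 24.1% in thymus replicates 1 to 4 and 21.8%, 27.6%, 26.8% and 27.0% in spleen. It was 28.8%, 34.8%, 32.3% and 28.9% in mLN and 19.6%, 18.5% and 19.8% in iLN replicates 2 to 4. Every mLN library was above every library of the other tissues, and every iLN library was below them.

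Between iLN and mLN the mean share differed by -11.9 points, and in 3 other pairs by 5.39 (mLN vs spleen), 6.02 (mLN vs thymus) and -5.88 points (iLN vs thymus), each reaching p = 0.0286 by exact permutation, two-sided (adjusted p = 0.0429 over 6 pairs). The smallest p that 4 against 4 or 3 against 4 libraries allow is 0.0286. For iLN vs spleen (-6.51 points) the exact permutation p was 0.0571, and for thymus vs spleen (-0.63 points) it was 0.743. This share was chosen after its values had been seen, so that these p-values are too small.

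The 5 pairs other than thymus vs spleen kept their direction in each batch alone, with iLN vs mLN at -11.4 points in the First and -12.2 in the Second batch. With 1 library fewer the exact test can no longer reach its threshold in the iLN pairs, where p was 0.0667 to 0.1. Leaving out mLN replicate 2 or spleen replicate 1 gave mLN vs spleen p of 0.0571 to 0.0857, and leaving out any mLN library or thymus replicate 3 gave mLN vs thymus p in the same range. The share of Tcrg-C1 was higher in iLN than in mLN, with 32.7% ± 1.26 (SD, n = 3) of the Tcrg-C counts in iLN and 24.9% ± 1.23 (n = 4) in mLN, whereas the share of Tcrg-C2 was between 43.2% and 47.7% in the 4 tissue means.

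**Figure D4:**
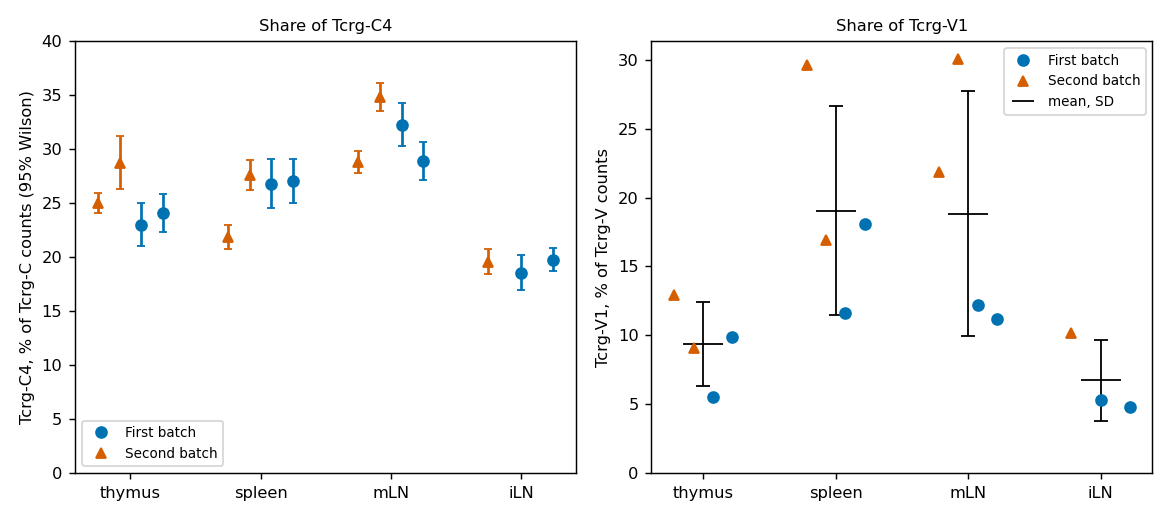
Left, share of Tcrg-C4 in the Tcrg-C counts of each library (y axis, percent) by tissue, with 95% Wilson intervals for counting error. Right, share of Tcrg-V1 in the Tcrg-V counts (y axis, percent), with mean and SD as black bars. Circles are the First and triangles the Second batch. Tcrg-C4 shares of iLN (18.5% to 19.8%) lie below and those of mLN (28.8% to 34.8%) above all other libraries, and the Tcrg-V1 share of iLN is 4.79% to 10.1%.

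The γ V segments were measured at far lower counts, 3817 over all libraries against 56925 for the Tcrg-C genes. Tcrg-V2, which lies in the cassette of Tcrg-C2, held 56.9% of them, Tcrg-V4 of the Tcrg-C1 cassette 24.2% and Tcrg-V1 of the Tcrg-C4 cassette 13.9%. These are pooled shares, and Tcrg-V1 was above Tcrg-V4 in 4 of the 15 libraries. Tcrg-V7 had 107 counts, Tcrg-V3 50, Tcrg-V6 23 and Tcrg-V5 14, and the 4 Tcrg-J segments had 0 in every library. Of 21 further Tcrg and Trd genes listed, 8 had at least 10 counts.

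Tcrg-V2 had a mean of 42.3 ± 16.4 CPM (SD, n = 3) in iLN, 26.5 ± 8.27 (n = 4) in mLN, 22.6 ± 9.72 (n = 4) in thymus and 17.1 ± 4.29 (n = 4) in spleen, with a log2 fold change of 1.23 in iLN over spleen (SE 0.36, edgeR adjusted p = 0.0655). Tcrg-V4 had 1.29 in the same pair (SE 0.44, adjusted p = 0.125) and Tcrg-V1 had -0.32 (SE 0.56, adjusted p = 0.846). None of the 4 V segments tested, Tcrg-V1, Tcrg-V2, Tcrg-V4 and Tcrg-V7, was called in any pair of tissues. The share of Tcrg-V1 in the V counts was 6.73% ± 2.96 (n = 3) in iLN, 9.36% ± 3.05 (n = 4) in thymus, 18.8% ± 8.90 (n = 4) in mLN and 19.1% ± 7.57 (n = 4) in spleen, and the iLN and thymus ranges overlapped.

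V segments made up 2.49% to 5.89% of the γ counts (V plus constant) in the 7 Second-batch libraries and 7.95% to 11.2% in the 8 First-batch libraries, with no overlap. Tcrg-V2 and Tcrg-V4 had log2 fold changes of -0.52 (edgeR adjusted p = 0.206) and -0.80 (adjusted p = 0.107) in Second over First and did not pass the test. The β chain was split by batch in the same way, with 3.32% to 5.37% of its counts in V segments in the Second and 6.12% to 10.2% in the First batch, whereas the α chain overlapped (23.3% to 29.4% and 19.2% to 29.05%).

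Genes known from IL-17-producing γδ T cells and iNKT cells were followed beside the members. Of 17 symbols listed, 15 were found and 13 tested. Scart1 and Scart2 matched no gene by name, and these genes may be present under other names. Of the 13, 10 were called higher in iLN than in spleen, against 0.963% of all genes, with a median log2 fold change of 3.51. They included Il23r, the IL-23 receptor, with 95.5 ± 23.1 CPM (SD, n = 3) in iLN and 1.53 ± 2.10 (n = 4) in spleen. They also included Maf and Sox13, transcription factors of IL-17-producing γδ T cells, Ccr6, a chemokine receptor, the receptor genes Il1r1 and Il17re, Tmem176a, Tmem176b and 5830411N06Rik. The 8 called higher in iLN than in thymus (0.875% of all genes) included Rora (log2 fold change 2.42), and in mLN over spleen 1 was called higher (0.456% of all genes), Il1r1 (2.61). Il17a itself was at most 0.27 CPM in the tissue means.

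In mLN replicate 1, the library with the most Trdc, 5 of the 13 genes tested had their lowest and 3 their highest level among the 4 mLN libraries. The part of these genes in the results for Tcrg-C1 and Tcrg-C2 was not tested.

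Of 14 regulators of TCR loci, 2 were called in at least 1 pair, as were 3.65% of all genes. Il7r, the IL-7 receptor α chain, was at 1285 ± 325 CPM (SD, n = 3) in iLN, 734 ± 173 (n = 4) in thymus, 603 ± 131 (n = 4) in mLN and 490 ± 52.2 (n = 4) in spleen. Its log2 fold change in iLN over spleen was 1.47 (SE 0.17, edgeR adjusted p = 3.06e-05), and it was also called in iLN over thymus (0.90) and over mLN (1.18). Tcrg-C1 and Tcrg-C2 had the same order of tissue means and Tcrg-C4 had another. How many other genes share this order was not counted, and a link to Il7r was not tested. Runx1, which encodes a transcription factor of T cell development, was called lower in thymus than in each other tissue, with log2 fold changes of -1.03 in thymus over spleen, 1.13 in mLN over thymus and 1.15 in iLN over thymus. Stat5a, Stat5b and the other 10 did not pass the test in any pair.

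Genes listed as markers of other cells were also summed over each list, in CPM, in iLN and spleen. Such a sum does not show which cells the RNA came from. The 6 ILC3 and LTi markers summed to 67.5 to 91.5 in iLN and 23.2 to 36.6 in spleen, with Il22 at 0 in both. In mLN they summed to 72.7 to 149, so that high sums were not particular to iLN. Nrp1 had the highest mean of the list, 47.2 CPM in iLN, 77.1 in mLN and 17.5 in spleen. The 6 myeloid markers summed to 1.97 to 8.94 in iLN, with Cd14, Adgre1, Itgam and Itgax at 0, and to 9.76 to 53.9 in spleen, and the 5 red cell genes to 0.513 to 4.84 and 24.0 to 117. The 6 B cell markers overlapped (187 to 219 and 196 to 324). Of the 6 NK and ILC1 markers, 2 were tested, and Gzma was called lower in iLN, against 1.55% of all genes in either direction. Gzma had a mean of 10.7 CPM in spleen, and the paper names it among genes that differed between iNKT cells of these tissues. Klra8 was at 0 in iLN and was not called, and Klra4 was at 0 in both iLN and spleen. The sums were 0.538 to 19.3 in iLN and 9.97 to 14.1 in spleen. The sum of 19.3 was that of iLN replicate 4, where Kit was at 15.7 and Eomes at 3.59. In spleen Kit was at most 0.592 and Eomes was at 0. Ncr1 had means of 0.722 in iLN and 0.663 in spleen. Kit, Eomes, Klra4 and Ncr1 were not tested. The part of other cells in the results was not tested. Of the 8 early thymocyte markers, 5 were tested and 1 was called in any pair, against 3.65% of all genes. This was Rag1, higher in thymus. The sums were 35.3 to 123 in thymus and 14.5 to 29.96 in the other tissues. Mns1 had the highest mean of the list, 35.2 CPM in thymus and 12.3 to 15.8 in the other tissues. Ptcra had its lowest mean in thymus (0.962 CPM), and Cd8b1 was at 3.28 there and 3.69 in iLN.

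The genes whose levels followed each member most closely over the 15 libraries were found by Spearman's rank correlation of log2 CPM with the batch term removed, among 10137 genes outside the Tra, Trd and Tcrg loci with a mean of at least 5 CPM. For Tcrg-C1 these were Plp2 (0.89), Ide (0.88) and Mtmr7 (0.88), and for Tcrg-C2 they were Plp2 (0.96), Ybx1 (0.93) and Daam1 (0.91). Plp2, a proteolipid of membranes, was at 44.4 ± 25.9 CPM (SD, n = 3) in iLN and 3.21 ± 3.29 (n = 4) in spleen. Tcrg-C4 had other neighbours, Psmd1, a proteasome subunit (0.96), Rrs1 (0.94), a ribosome assembly factor, and Crnkl1 (0.92), a splicing factor. Between members the correlation was 0.90 for Tcrg-C1 and Tcrg-C2, 0.63 for Tcrg-C2 and Tcrg-C4 and 0.52 for Tcrg-C1 and Tcrg-C4. These are descriptions over libraries that share tissues and batches.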

How the data were processed

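RNA from sorted iNKT cells was amplified (NuGEN Ovation Ultralow) and sequenced as paired reads. Per the submitters' processing notes, the authors trimmed reads with cutadapt 1.7.1 and used RSEM 1.2.31 with Bowtie2 2.2.9 on GRCm38. The deposited files give an expected count, TPM and FPKM per gene, the FPKM values being not used here. Whether counting used strand is not given in the sources used here.

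Expected counts were rounded and tested with edgeR 4.0.16 (quasi-likelihood, robust, TMM, filterByExpr, tissue plus batch, all 15 libraries), with Benjamini-Hochberg adjustment over 13600 genes. A gene was called at an adjusted p under 0.01 and a fold change over 1.5. TPM was used to compare genes. CPM are counts scaled by TMM to a common library size. Alternatives were DESeq2 1.42.0, limma 3.58.1 on log2(TPM + 0.1) and log2(TPM + 1), other scalings, filters and designs, each batch alone and leaving out each library. Shares were compared by exact permutation (scipy 1.17.1). Named genes were the members, the locus genes with at least 10 counts, the called genes of the IL-17 and regulator lists and the 3 genes most alike to each member. The values of 1 listed gene are not reported here. The members and lists were chosen with earlier results of these data known. The fit was tested on simulated data.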

Additional observations from a re-analysis of the deposited data

Results flagged for a closer look

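The share of Tcrg-C4 in the Tcrg-C counts of spleen replicate 1, 21.8%, lay far from the other 3 spleen libraries (26.8% to 27.6%), with a gap of 0.856 of the range of the group. It was the only sample to stand apart in 24 groups tested, and chance alone sets 1 in 20 groups apart. Without it, the share in mLN over spleen differed by 4.06 points (exact permutation p = 0.0857).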

How the results depend on the processing

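The calls of Tcrg-C1 and Tcrg-C2 in iLN over spleen held with DESeq2, another scaling, no filter, a stricter filter and the replicate block, and were lost (0 members called) with each batch alone, TPM, no batch term or only the 2 tissues; the cause was not tested. Their log2 fold changes, with that of the summed genes last, were 1.35, 1.09 and 1.05 in the First batch, 0.72, 0.59 and 0.54 in the Second, 1.24, 1.01 and 0.98 on log2(TPM + 0.1), 1.23, 1.01 and 0.98 on log2(TPM + 1), 1.01, 0.79 and 0.76 with no batch term and 1.12, 0.91 and 0.86 with only the 2 tissues. With no filter, 1 member was called in iLN over mLN, Tcrg-C1 (0.89).

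The adjusted p of Tcrg-C1 over the 4 tissues was 0.0233 in the First and 0.323 in the Second batch, 0.176 and 0.164 on the TPM scales and 0.328 with no batch term. That of Tcrg-C2 passed with DESeq2 (0.000824), no filter (0.000551) or a threshold of 0.05 (0.0186), as did the summed genes (0.00164, 6.57e-05 and 0.0237).

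Directions that turned were all of differences that had not passed the test. In the Second batch iLN over thymus was -0.18 for Tcrg-C1, -0.062 for Tcrg-C2, -0.70 for Tcrg-C4 and -0.25 for the summed genes, the summed genes were -0.075 in iLN over mLN, and the Tcrg-C4 share was 2.14 points higher in thymus than in spleen. Tcrg-C4 was -0.25 in iLN over thymus with no batch term and 0.10 in iLN over mLN in the First batch. The summed genes in mLN over thymus were 0.043 in the First batch and 0.0084 and 0.0083 on the TPM scales.

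Leaving out 1 library gave iLN over spleen 0.84 to 1.52 for Tcrg-C1, 0.67 to 1.18 for Tcrg-C2 and 0.60 to 1.201 for the summed genes, with 0 to 2 members called. Over the 4 tissues it gave an adjusted p of 0.00132 to 0.0334 for Tcrg-C1, 0.00753 to 0.0607 for Tcrg-C2 and 0.00437 to 0.0677 for the summed genes. Tcrg-C4 ranged from -0.56 to 0.077 in iLN over mLN and from -0.34 to 0.30 in iLN over thymus, and the summed genes from -0.17 to 0.028 in mLN over thymus. The Tcrg-C4 share ranged from -12.7 to -10.7 points in iLN vs mLN, -6.63 to -4.71 in iLN vs thymus, 4.06 to 6.19 in mLN vs spleen, 4.81 to 7.20 in mLN vs thymus and -1.96 to 0.12 in thymus vs spleen.

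Deviations from the tissue mean correlated at a mean of 0.12 between same-numbered libraries and 0.11 between other numbers in the same batch. Both values include the difference between batches, so that they cannot decide whether replicate numbers pair the samples. The paper used a paired t-test on the clonotype frequencies of its sequenced samples. With the replicate block, iLN over spleen was 1.27 for Tcrg-C1 (edgeR adjusted p = 0.00243) and 0.99 for Tcrg-C2 (adjusted p = 0.00559), with 2 members called as before. At 0 to 60 counts a library, depth limits Trdc and the other δ genes, and thymus replicate 2 was the shallowest library.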
